A study of Mus musculus with 18 samples.

Results

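The expression of 10 genes of the NRF2 oxidative stress response was followed through 18 RNA-seq libraries of mouse pancreatic ductal adenocarcinoma (PDAC) cells. The genes are the regulators Nfe2l2 and Keap1 and the targets Osgin1, Nqo1, Hmox1, Txnrd1, Srxn1, Slc7a11, Me1 and Cbr3, found by symbol among the 16383 genes of the table. Each of the 10 had 1 entry and passed the filter on low values, a level of at least 1 CPM (read counts scaled to the total of their library) in 4 or more libraries. Nqo1 reached 1 CPM in 17 libraries and Cbr3 in 15. The set was drawn up with earlier results of these data known, and Osgin1 was singled out by its lower level after knockdown, so its knockdown values are given as a description with no test.

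The cells were 6 lines grown in 2D culture, each from a spontaneous metastasis of a mouse model, 42-3 and 6-2 from lung and 42-2, G45-2, 6-3 and 13-2 from liver. They received, by lentivirus, the NT control or 1 of 2 hairpins (shRNA 1, shRNA 2) aimed at Gstt1, a glutathione S-transferase, and all cells passed through puromycin selection for 48 h and 1 split before harvest. The genotype labels name SIRT6F/F, p48-Cre and p53F/+ for the first 42-3 set, p48+ and Tp53F/+ with no Sirt6 allele for 13-2, and SIRT6F/F, p48+ and Tp53F/+ for the others, so control and knockdown cells alike carry the p48 and p53 alleles. The p48 promoter acts in the developing pancreas, and the ages of the animals are not among the labels. There were 8 NT control, 6 shRNA 1 and 4 shRNA 2 libraries, which form 8 culture sets of 1 control with its own knockdowns. Lines 42-3 and 42-2 each have a first and a second set, told apart by the library code, and G45-2 and 6-3 have both hairpins. The labels do not say that libraries of a line were separate cultures, and p-values therefore measure only the spread between these samples.

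NRF2, the protein of Nfe2l2, is a transcription factor that KEAP1 holds in the cytoplasm and hands to a CUL3 ubiquitin ligase for degradation. Oxidants and electrophiles modify cysteines of KEAP1, NRF2 then escapes, enters the nucleus, pairs with a small MAF protein and binds antioxidant response elements near genes for quinone reduction, thiol repair, heme breakdown, cystine import and NADPH supply. Much of the pathway's control lies in the amount of NRF2 protein, which RNA counts do not measure.

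The bases just upstream of a gene's start are where such elements are often found, and 4 promoters are printed because their genes carry the contrasts described below: Osgin1, lower after knockdown in each library, and Srxn1, Txnrd1 and Nqo1, higher in most. RefSeq entries were at hand for 9 of the 10 genes, the other being Hmox1, and each stretch holds the 250 bases before the start, 5′ to 3′ on the gene's strand, in the build GRCm38.p6, which is not the mm9 build of the expression table. Capitals mark matches to TGACNNNGC or TGAGNNNGC, the core of an antioxidant response element, on either strand.
Osgin1, chr8:119436897-119437146, plus strand: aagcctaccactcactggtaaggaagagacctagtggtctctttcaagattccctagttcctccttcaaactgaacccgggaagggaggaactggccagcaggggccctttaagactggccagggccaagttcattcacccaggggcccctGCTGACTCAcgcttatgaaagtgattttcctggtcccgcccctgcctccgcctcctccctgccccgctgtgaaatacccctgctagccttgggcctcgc
Srxn1, chr2:152105274-152105523, plus strand: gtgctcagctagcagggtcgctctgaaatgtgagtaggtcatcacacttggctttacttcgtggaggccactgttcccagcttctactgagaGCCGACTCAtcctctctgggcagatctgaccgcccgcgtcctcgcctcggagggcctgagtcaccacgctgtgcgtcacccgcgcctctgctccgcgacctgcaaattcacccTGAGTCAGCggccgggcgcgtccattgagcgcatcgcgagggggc
Txnrd1, the second of its 3 listed starts, chr10:82858956-82859205, plus strand: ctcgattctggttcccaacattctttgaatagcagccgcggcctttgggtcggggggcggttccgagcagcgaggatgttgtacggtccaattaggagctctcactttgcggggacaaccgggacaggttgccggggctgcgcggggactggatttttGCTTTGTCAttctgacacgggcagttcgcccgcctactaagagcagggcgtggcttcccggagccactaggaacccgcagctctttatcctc
Nqo1, chr8:107403206-107403455, minus strand: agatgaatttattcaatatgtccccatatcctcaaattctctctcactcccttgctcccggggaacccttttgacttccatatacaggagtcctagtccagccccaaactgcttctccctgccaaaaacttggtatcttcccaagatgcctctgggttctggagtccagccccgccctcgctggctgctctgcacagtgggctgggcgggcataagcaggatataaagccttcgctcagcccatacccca
The Osgin1 match, 99 to 91 bases before the start, reads TGAGTCAGC on the opposite strand. Srxn1 holds the same 9 letters 45 to 37 bases before its start, on the gene's strand, and TGAGTCGGC on the other strand 158 to 150 bases before it. TGAGTCAGC contains TGAGTCA, the site of the AP-1 factors (Fos and Jun proteins), so the 2 motifs overlap in these letters. Of 32841 mouse promoters of this length, 23.0% hold at least 1 match to the response element core, 3.18% more than 1, 4.46% TGAGTCA and 0.347% TGAGTCAGC. Of the 12 promoters of the 9 genes 5 had a match, 1 gene each: in Txnrd1, whose other listed starts had none, it reads TGACAAAGC, in Slc7a11 TGAGAAAGC and in Nfe2l2 TGACTCCGC. No match was found in these windows of Nqo1, Me1, Cbr3 and Keap1, which says only that the letters are not in them.

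Library depth was 8411436 to 25552912 reads, and 3 reads correspond to 0.117 to 0.357 CPM. Gstt1 was lower than in the own control in 10 of 10 knockdown libraries. The largest shares of the control level remained under shRNA 1 in lines 6-3 (25.4 to 19.2 CPM) and G45-2 (43.8 to 23.9 CPM). Line 42-2 had little Gstt1 to lose, 2.67 CPM in its first control (0.373 CPM after knockdown) and 0.616 CPM in its second (0.0687 CPM after knockdown), against 24.3 to 52.5 CPM in the controls of the other lines. The 8 ductal and epithelial markers were all detected, with a summed level of 539 to 15156 CPM in controls and 375 to 7683 CPM after knockdown, lowest in the second 42-2 set. Fibroblast markers, 7 of 8 in the table, summed to 5.79 to 2917 CPM and 4.08 to 6452 CPM, highest in the second 42-2 set. Macrophage (3 of 7 in the table), endothelial (5 of 5) and hepatocyte (2 of 4) markers summed to at most 16.6, 11.8 and 40.3 CPM, and Nkx2-1, the 1 lung epithelial marker of 4 in the table, to at most 0.0681 CPM. In bulk RNA, fewer cells of a type and less RNA per cell cannot be told apart. In 5 sets (both 42-3 sets, 6-2, 13-2 and the first 42-2 set) the control and knockdown libraries stand at least 10-fold apart in 2 or more of 7 transcripts that mark a cell's identity (Xist, 4 Y-linked genes, Cdkn2a and Cdkn2b, chosen after their values were seen), counting those at 10 CPM or more in 1 of the libraries. At a limit of 1 CPM the second 42-2 set joins them, which leaves G45-2 and 6-3. G45-2 still had 1 transcript that far apart, the Y-linked Kdm5d. It was at 29.8 CPM in the G45-2 control, 0 CPM with shRNA 1 and 0.0621 CPM with shRNA 2. Knockdown results are therefore also given over the 3 sets that passed the first limit, G45-2, 6-3 and the second 42-2 set, the last with the low Gstt1 control. All lung sets are among the 5.

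**Figure D1:**
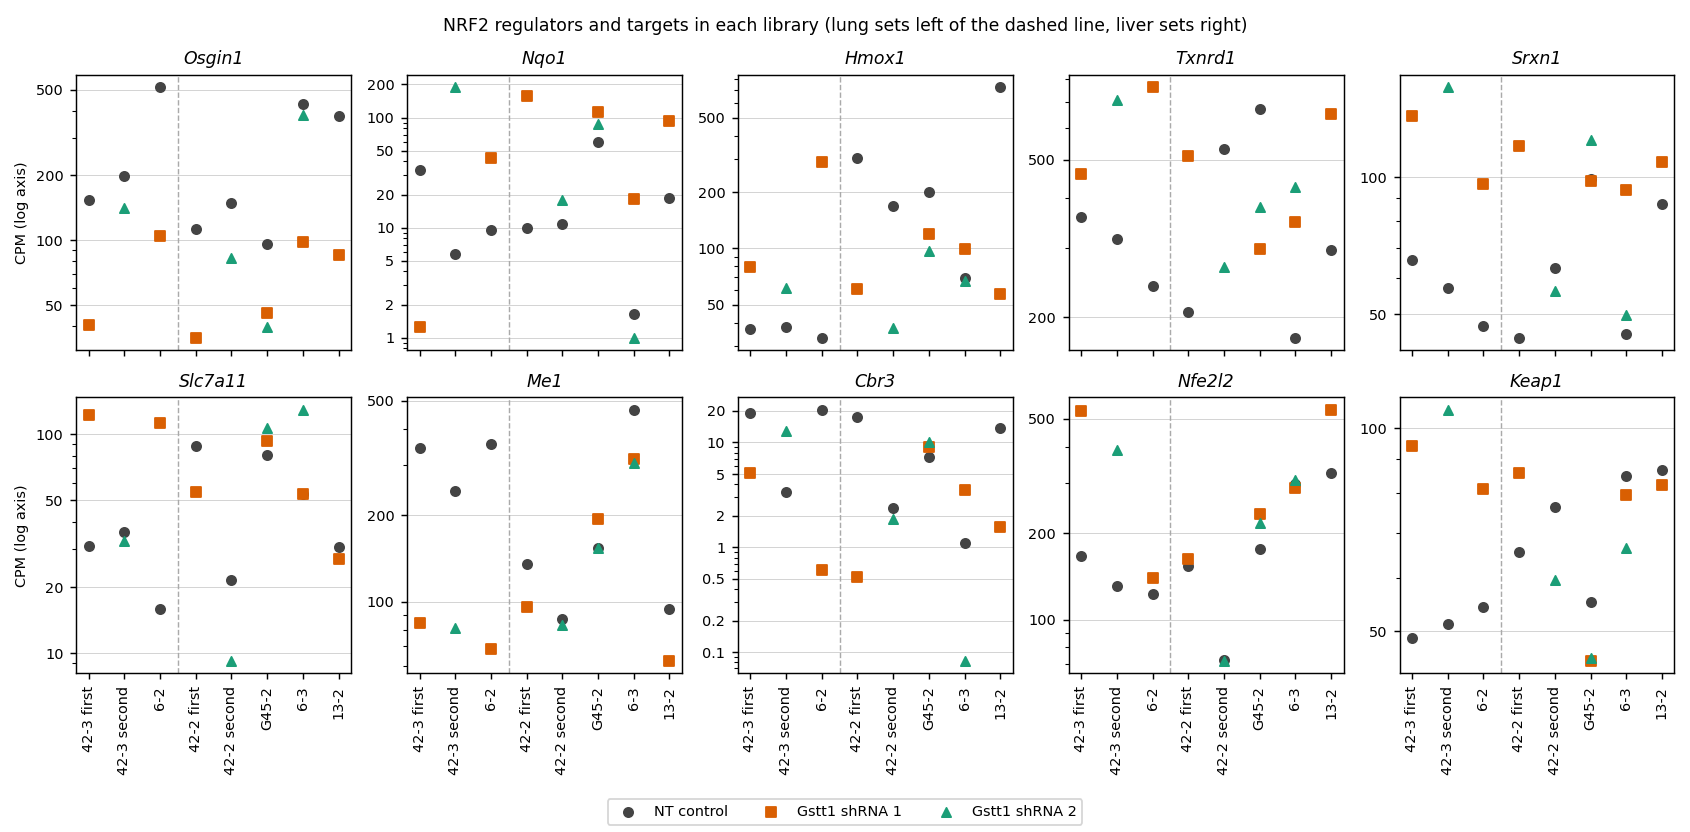
CPM of each of the 10 genes (log axis, a range of its own in each panel) in the 18 libraries by culture set; circles are NT controls, squares Gstt1 shRNA 1, triangles Gstt1 shRNA 2, and the dashed line divides lung from liver sets. Osgin1 lies below its control in each set, and Nqo1 and Cbr3 span the widest ranges.

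The question of the main comparison is which transcripts differ when Gstt1 is knocked down. None of the 9 genes other than Osgin1 passed an adjusted p of 0.05 (limma, smallest adjusted p 0.169), against 0.0387% of the 12931 genes tested. At an unadjusted p of 0.05 there were 3 of the 9 (Srxn1, Me1 and Nfe2l2) and 2216 of all genes. EdgeR on recovered reads called 0 of the 9 and 0 of all genes, with 3 of the 9 and 1959 of all genes at that unadjusted p. Among sets, Osgin1 was lower in 8 of 8, Nqo1, Srxn1 and Nfe2l2 were higher in 7 of 8, and Me1 was lower in 7 of 8. Txnrd1 was higher in 6 of 8, Cbr3 was lower in 5 of 8, and Hmox1, Slc7a11 and Keap1 were divided 4 to 4. The share of all genes on 1 side in 7 of 8 sets was not counted. None of the 9 was on 1 side in 8 of 8 sets, against 1.34% of all genes that were higher and 2.43% that were lower in all 8. No gene of the 10 had control and knockdown ranges apart from each other, against 0.101% of all genes with knockdown above and 0.0851% with knockdown below.

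Osgin1 encodes oxidative stress-induced growth inhibitor 1, a stress-inducible protein linked to growth arrest and cell death. In the lung sets its level was 154 CPM in the first 42-3 control and 40.2 CPM with shRNA 1, 199.5 CPM in the second 42-3 control and 141 CPM with shRNA 2, and 515 CPM in the 6-2 control and 104 CPM with shRNA 1. In the liver sets with 1 hairpin it was 113 against 35.2 CPM in the first 42-2 set, 149.5 against 82.4 CPM in the second and 377 against 85.1 CPM in 13-2, control first. In G45-2 it was 95.7 CPM in the control, 45.9 CPM with shRNA 1 and 39.6 CPM with shRNA 2, and in 6-3 it was 431, 97.7 and 384 CPM in that order. Every knockdown library lay below its own control, while the groups overlapped, since the 6-3 library with shRNA 2 stood above 6 of the 8 controls. The difference from the own control on the log2(CPM + 1) scale, which understates changes of low genes, was -2.29 to -0.17 per library and -1.46 ± 0.64 over sets (SD, n = 8). Nothing is read from its place among the 2.43% of genes lower in 8 of 8 sets, since Osgin1 was chosen from this contrast. Over the 3 sets that passed the first identity limit the mean was -1.05.

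The size of the Osgin1 difference varied between lines and between hairpins. With shRNA 1 the 6 libraries lay at 35.2 to 104 CPM (median 65.5), and with shRNA 2 the 4 libraries lay at 39.6, 82.4, 141 and 384 CPM. In G45-2 the hairpins gave like levels, the shRNA 2 library lying 0.21 log2 units below (-0.21), whereas in 6-3 the shRNA 2 library stood 1.96 log2 units above the shRNA 1 library. In that line Gstt1 itself had the opposite order, 19.2 CPM with shRNA 1 and 0.250 CPM with shRNA 2 against 25.4 CPM in the control. The 6-3 library with the lower Gstt1 thus had the Osgin1 level closer to control. In G45-2 shRNA 2 also gave the lower Gstt1, 5.15 against 23.9 CPM, but there it had the lower Osgin1, 39.6 against 45.9 CPM. Both 6-3 knockdown libraries carry another library code than their control, as does that of 13-2.

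Nfe2l2 encodes NRF2 itself. Its level was 72.3 to 324 CPM in controls (median 160.0, n = 8), 140.1 to 538 CPM with shRNA 1 (median 260.1, n = 6) and 72, 217, 307 and 390.2 CPM with shRNA 2. The library highest above its control was the first 42-3 set, at 531 against 166 CPM, followed by the second 42-3 set at 390.2 against 131 CPM and 13-2 at 538 against 324 CPM. In the remaining sets control and knockdown differed by at most 0.41 log2 units per library. The set mean was 0.57 ± 0.69 (SD, n = 8), the fitted difference was 0.54 (SE 0.22, limma adjusted p = 0.232), and over the 3 sets it was 0.12. The 2 sets of line 42-3, with different hairpins and library codes, gave 1.67 and 1.56, but both are among the 5 sets that differ in identity transcripts. Their knockdown libraries also differ from each other in Xist, at 197 CPM in the first set and 0.119 CPM in the second.

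Keap1 encodes the sensor that marks NRF2 for degradation, and had the narrowest range in controls, 48.9 to 86.6 CPM (median 60.4, n = 8). With knockdown it lay at 45.2 to 106 CPM (median 80.4, n = 10). It was higher than the control in the 3 lung sets and the first 42-2 set and lower in the other 4 sets. The fit gave 0.19 (SE 0.19, limma adjusted p = 0.646), with a set mean of 0.25 ± 0.56 (SD, n = 8) that turned to -0.28 over the 3 sets.

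Nqo1, the quinone reductase NAD(P)H dehydrogenase and a classical NRF2 target, varied most. Controls lay at 1.64 to 60.2 CPM (median 10.3, n = 8), a 36.8-fold range, and knockdown libraries at 0.999 to 189.5 CPM (median 64.8, n = 10). The 2 sets of line 42-3 went opposite ways: the first went from 33.1 to 1.25 CPM with shRNA 1 and the second from 5.73 to 189.5 CPM with shRNA 2. The controls of that line alone were 2.34 log2 units apart, which is larger than the mean knockdown difference. The first 42-2 set stood at 9.88 and 157 CPM, 13-2 at 18.7 and 92.5 CPM, 6-2 at 9.46 and 42.6 CPM and the second 42-2 set at 10.7 and 17.9 CPM, control first. In G45-2 the values were 60.2, 113 and 87.0 CPM for control, shRNA 1 and shRNA 2, and in 6-3 they were 1.64, 18.4 and 0.999 CPM. Nqo1 was therefore higher in 8 of 10 knockdown libraries, the exceptions being the first 42-3 set and the 6-3 library with shRNA 2, the same 6-3 library that held Osgin1 close to control. The fitted difference was 1.37 (SE 0.79, limma adjusted p = 0.393), the set mean 1.46 ± 2.62 (SD, n = 8), and the mean over the 3 sets 0.88.

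Srxn1 encodes sulfiredoxin, which restores over-oxidised peroxiredoxins. Its controls lay at 44.4 to 99.0 CPM (median 60.1, n = 8), its shRNA 1 libraries at 93.6 to 137 CPM (median 103, n = 6) and its shRNA 2 libraries at 49.7, 56.2, 121 and 158 CPM. The 6 shRNA 1 libraries stood above 7 of the 8 controls, and the overlap came from the G45-2 control at 99.0 CPM. The difference was 0.72 ± 0.60 over sets (SD, n = 8), with 5 sets between 0.58 and 1.45 and only the second 42-2 set, at -0.16, below 0. The fit gave 0.65 (SE 0.21, limma adjusted p = 0.169), and the 3-set mean was 0.18.

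Txnrd1 encodes the cytosolic thioredoxin reductase, which keeps thioredoxin reduced with NADPH. Controls lay at 178 to 671 CPM (median 305, n = 8) and knockdown libraries at 268 to 763 CPM (median 444, n = 10). It was higher than the control in 6 of 8 sets, by 0.36 to 1.67 log2 units per library, and lower in G45-2 (671 CPM against 298 and 380.1 CPM) and in the second 42-2 set (531 against 268 CPM). These were the sets with the highest controls. The first and second sets of line 42-2 had opposite signs, 1.30 and -0.98. The 2 controls of that line differed by 1.36 log2 units, and its knockdown libraries differed too, at 510 CPM with shRNA 1 and 268 CPM with shRNA 2. The fitted difference was 0.52 (SE 0.32, limma adjusted p = 0.422), the set mean 0.60 ± 1.04 (SD, n = 8), and the 3-set mean -0.29.

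Hmox1 encodes heme oxygenase 1, which degrades heme to biliverdin, iron and carbon monoxide. Lung controls were 33.2, 37.0 and 37.8 CPM, and their knockdown libraries 288, 79.2 and 61.1 CPM for 6-2 and the first and second 42-3 sets. Liver controls were 69.1, 169, 201, 303 and 729 CPM for 6-3, the second 42-2 set, G45-2, the first 42-2 set and 13-2. Their knockdown libraries lay at 37.4 to 119 CPM, the 13-2 library at 57.2 CPM being 12.8-fold below its control. Knockdown libraries thus covered a narrower range than controls. Over all sets the fit gave -0.52 (SE 0.59, limma adjusted p = 0.694), with a set mean of -0.49 ± 2.18 (SD, n = 8) and a 3-set mean of -0.93.

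Me1, the cytosolic malic enzyme that yields NADPH, lay at 87.3 to 465 CPM in controls (median 198, n = 8) and 62.5 to 313 CPM after knockdown (median 89.9, n = 10). In the lung sets it was 342 against 84.1 CPM, 243 against 81.2 CPM and 354 against 68.3 CPM, for the first and second 42-3 sets and 6-2. The liver sets showed smaller differences: 6-3 went from 465 CPM to 313 and 304 CPM, G45-2 from 153 to 194 and 154 CPM, and the second 42-2 set from 87.3 to 83.2 CPM. The fitted difference was -0.86 (SE 0.28, limma adjusted p = 0.169), the set mean -0.94 ± 0.92 (SD, n = 8) and the 3-set mean -0.16.

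Cbr3, a carbonyl reductase, had few reads in several libraries. Its controls lay at 17.7, 19.0 and 20.5 CPM in the 3 sets with 1 library code (the first 42-2 set, the first 42-3 set and 6-2) and at 1.09 to 13.9 CPM in the other 5. Within line 42-3 the controls were 19.0 and 3.37 CPM, and within line 42-2 they were 17.7 and 2.39 CPM, the lower one carrying another library code each time. The part of the library code in this order was not tested. After knockdown it was at 0.0832 to 12.8 CPM (median 2.68, n = 10), and the lowest value, in the 6-3 library with shRNA 2, lies below 0.117 CPM, the lowest value that 3 reads had in any library. Cbr3 was higher than the control in 3 sets and lower in 5, from -3.73 log2 units in 6-2 to 1.66 in the second 42-3 set. The fitted difference was -0.99 (SE 0.58, limma adjusted p = 0.404), the set mean -1.22 ± 1.98 (SD, n = 8) and the 3-set mean 0.062.

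Slc7a11 encodes xCT, the cystine and glutamate exchanger that feeds glutathione synthesis. Controls lay at 16.0 to 88.4 CPM (median 33.3, n = 8) and knockdown libraries at 9.28 to 129 CPM (median 74.0, n = 10). It was higher after knockdown in 6-2 (16.0 and 113 CPM) and the first 42-3 set (30.9 and 122 CPM), lower in the second 42-2 set (21.7 and 9.28 CPM), and nearly level in the second 42-3 set (35.7 and 32.5 CPM), control first. In 6-3 it stood at 53.4 CPM in the control, 53.5 CPM with shRNA 1 and 129 CPM with shRNA 2. For Slc7a11 the fit gave 0.42 (SE 0.39, limma adjusted p = 0.622), with a set mean of 0.44 ± 1.32 (SD, n = 8) and a 3-set mean of -0.069.

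**Figure D2:**
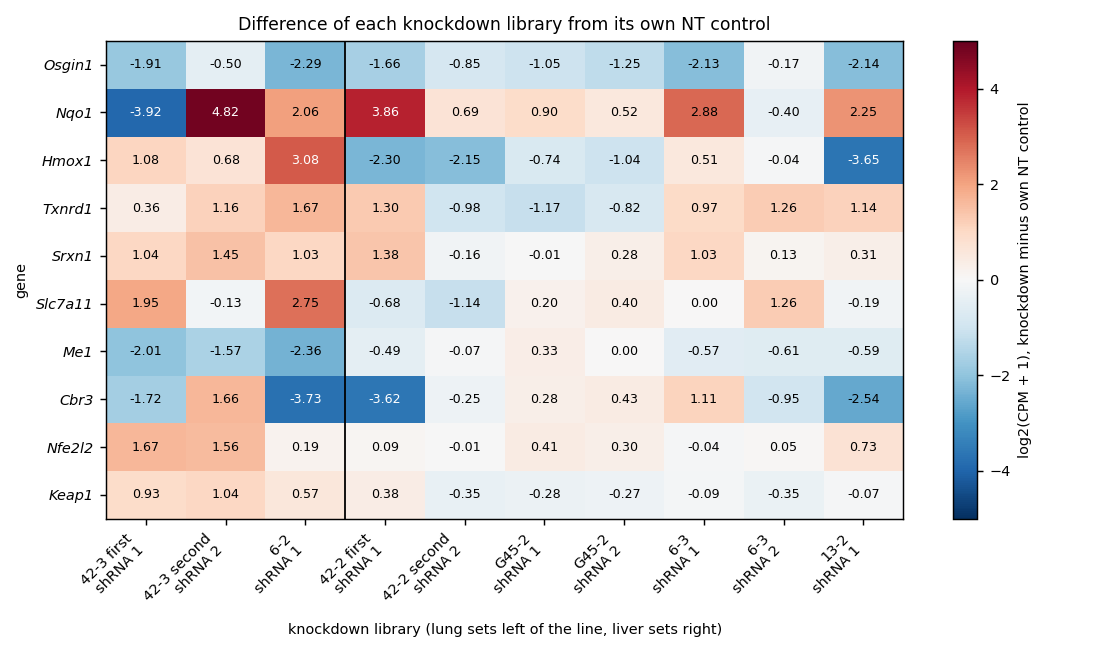
Difference on the log2(CPM + 1) scale of each of the 10 knockdown libraries from its own NT control (columns, lung sets left of the line) for each gene (rows); blue is lower and red higher than control. Osgin1 is below 0 in each library, from -2.29 to -0.17, while Nqo1 runs from -3.92 to 4.82.

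Taken by hairpin, the same genes gave no call. With shRNA 1 (6 sets) limma called 0 of the 9 and 0% of all genes, with a smallest adjusted p of 0.188 among the 9. At an unadjusted p of 0.05 there were 3 of the 9 and 2077 of the 12931 genes. EdgeR called 0 of the 9, with 2 of them and 1751 of all genes at that unadjusted p. With shRNA 2 (4 sets) limma called 0 of the 9 and 0% of all genes, and edgeR likewise called 0. At an unadjusted p of 0.05 there were 0 of the 9 by limma or edgeR, against 834 of the 12931 genes by limma and 742 by edgeR. The difference between hairpins gave 0 of the 9 by limma and by edgeR, and 0% of all genes by limma. At an unadjusted p of 0.05 there were 0 of the 9 by limma or edgeR, against 64 of all genes by limma and 57 by edgeR. The hairpins were carried by partly different lines, so their means hold line differences too. Set side by side, they were 108 ± 16.3 CPM with shRNA 1 (SD, n = 6) and 96.1 ± 52.2 CPM with shRNA 2 (SD, n = 4) for Srxn1, and 70.8 ± 60.1 and 73.9 ± 85.6 CPM for Nqo1. In G45-2, which had both, Srxn1 was 98.0 CPM with shRNA 1 and 121 CPM with shRNA 2, and Nqo1 113 and 87.0 CPM. In 6-3 Srxn1 was 93.6 and 49.7 CPM and Nqo1 18.4 and 0.999 CPM, shRNA 1 first, so the 6-3 pair lay further apart for both genes.

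The second comparison asks whether the knockdown difference is the same in lung and liver lines. None of the 10 genes passed (limma interaction, smallest adjusted p 0.0684 for Me1), against 0.186% of all genes, while 5 of the 10 (Hmox1, Slc7a11, Me1, Nfe2l2 and Keap1) and 2293 of all genes had an unadjusted p under 0.05. EdgeR called 0 of the 10 and 9 of all genes, with 3 of the 10 and 2012 of all genes at that unadjusted p. Its smallest adjusted p among the 10 was 0.156. The lung and liver set differences did not overlap for 3 of the 10, Hmox1, Me1 and Keap1, against 11.4% of all genes.

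Me1 differed from its control by -2.36 to -1.57 log2 units in the 3 lung sets and by -0.59 to 0.17 in the 5 liver sets, with means of -1.98 ± 0.39 (SD, n = 3) and -0.31 ± 0.35 (SD, n = 5). The interaction was -1.67 (SE 0.31, limma adjusted p = 0.0684), with an adjusted p of 0.0509 to 0.243 over the alternatives. Hmox1 was higher than control in each lung set, by 0.68 to 3.08 log2 units, and ran from -3.65 to 0.23 in liver sets. Its interaction was 3.18 (SE 0.84, limma adjusted p = 0.119). Keap1 stood 0.57 to 1.04 above control in lung sets and at -0.35 to 0.38 in liver sets, with an interaction of 0.96 (SE 0.28, limma adjusted p = 0.138). Slc7a11 had 1.65 (SE 0.68, limma adjusted p = 0.248) and Nfe2l2 0.92 (SE 0.37, limma adjusted p = 0.239). For Osgin1 the lung and liver set means were -1.57 and -1.39, with an interaction of -0.12 (SE 0.43, limma adjusted p = 0.911). The Nqo1 interaction of -0.71 (SE 1.69, limma adjusted p = 0.856) moved with single sets: it was 1.90 without the first 42-3 set and -3.43 without the second.

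Markers of cell types also moved in these sets. From control to knockdown, the summed ductal and epithelial markers went from 12324 to 1488 CPM (first 42-3 set), 13022 to 4775 CPM (second 42-3 set) and 15156 to 1948 CPM (6-2). The fibroblast sum was 58.4, 13.9 and 49.6 CPM in these controls and 3877, 357 and 58.7 CPM after knockdown. Liver sets moved too: the epithelial sum went from 13484 to 7552 and 7683 CPM in 6-3 and from 7767 to 4538 and 4276 CPM in G45-2, but from 2930 to 6704 CPM in 13-2. The fibroblast sum went from 516 to 761 and 1327 CPM in G45-2 and from 196 to 27.8 CPM in the first 42-2 set. The second 42-2 set held 2917 CPM in the control and 6452 CPM after knockdown. The highest sums rested mainly on Col3a1, which reached 6083 CPM after knockdown, against at most 329 CPM for any other marker of that list. In the knockdown fit, 1 of the 8 ductal and epithelial markers was higher and 7 lower, with 0 called by limma. Their median was -1.19, against -0.031 over all genes. Of the 5 fibroblast markers tested, 2 were higher and 3 lower. All 3 lung sets also differ in identity transcripts, no lung set remains without them, and their part in the Me1, Hmox1 and Keap1 values was not tested.

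**Figure D3:**
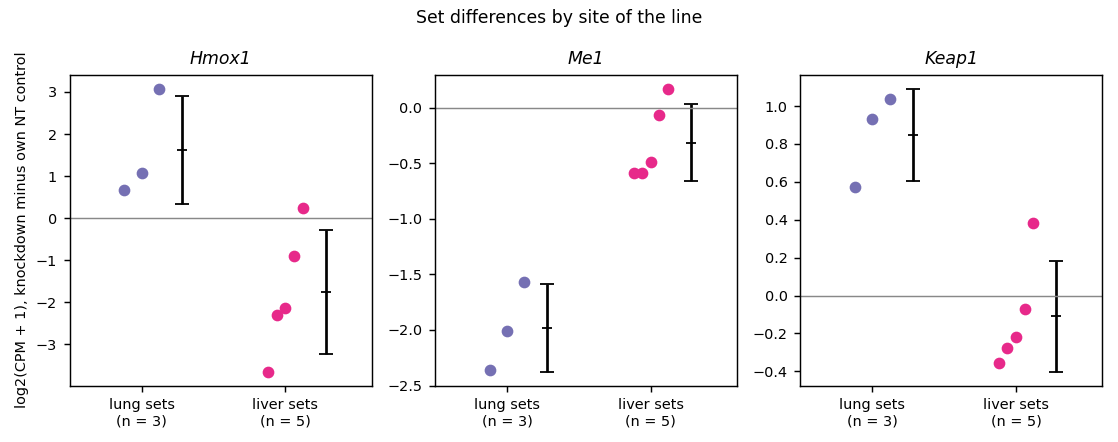
Difference on the log2(CPM + 1) scale from the own NT control (vertical axis, each panel with its own range) for Hmox1, Me1 and Keap1 in 3 lung and 5 liver sets; points are sets, each the mean of its knockdown libraries, and bars are mean ± SD. The lung sets lie above the liver sets for Hmox1 and Keap1 and below them for Me1, with no overlap.

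The third comparison sets the controls of the 2 lung lines against those of the 4 liver lines, and it shares its control libraries with the interaction, so the values of one are not independent of the other. None of the 10 passed on cell line means (limma, smallest adjusted p 0.272), against 0.0309% of all genes, with 2 of the 10 (Hmox1 and Slc7a11) and 1692 of all genes at an unadjusted p of 0.05. EdgeR, which took the 8 controls as separate libraries, called 0 of the 10 and 1 of all genes. At that unadjusted p it had 1 of the 10 and 2140 of all genes. Lung and liver control libraries did not overlap for Hmox1 and Keap1, 2 of the 10, against 12.2% of all genes. Hmox1 lay at 33.2 to 37.8 CPM in lung controls and 69.1 to 729 CPM in liver controls, a difference of -2.60 (SE 0.79, limma adjusted p = 0.272). Keap1 lay at 48.9 to 54.3 CPM in lung controls and 55.2 to 86.6 CPM in liver controls (-0.48, SE 0.26, limma adjusted p = 0.464), with the G45-2 control within 1 CPM of the 6-2 control. Slc7a11 was at -1.06 (SE 0.45, limma adjusted p = 0.380), and its controls overlapped. For Osgin1 the line order was 6-2, 6-3 and 13-2 above 42-3, 42-2 and G45-2, with 377 to 515 CPM in the first 3 and 95.7 to 199.5 CPM in the rest. Each of these groups held 1 lung line, and the difference was 0.50 (SE 0.72, limma adjusted p = 0.787). Repeat controls of a line differed by 0.37 log2 units (42-3) and 0.40 log2 units (42-2) for Osgin1, less than the gap between the upper and the lower lines.

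**Figure D4:**
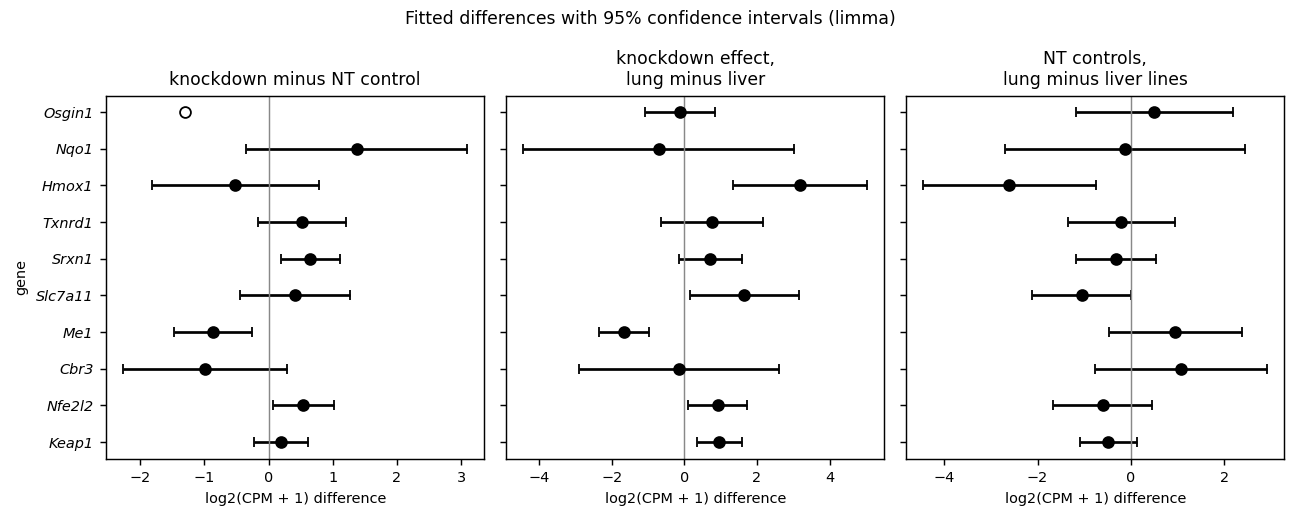
Fitted log2(CPM + 1) differences of each gene (horizontal axis, with 95% confidence intervals from limma) for knockdown against control, for the knockdown difference in lung minus liver lines, and for lung minus liver controls; the open circle for Osgin1 under knockdown has no interval because that contrast chose it. Intervals are unadjusted, and no gene passed after adjustment over all genes.

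The wider pathway was read from 3 lists of genes: partners and regulators of NRF2, targets outside glutathione metabolism, and glutathione genes. Of 15 partners tested of 15, 0 were called for knockdown by limma, with 3 at an unadjusted p of 0.05 (2216 of the 12931 genes tested were), 2 higher and 13 lower, and a median of -0.25 against -0.031 over all genes. Nfe2l3, a CNC factor related to NRF2, lay at 5.62 to 114 CPM in controls and 0.587 to 17.5 CPM after knockdown, lower in 7 of 8 sets (-2.49, SE 0.59, limma adjusted p = 0.105). Dpp3, a peptidase that binds KEAP1, lay at 175 to 290.3 CPM and 109.6 to 254 CPM, lower in 7 of 8 sets (-0.62, SE 0.17, limma adjusted p = 0.127). Of 34 other targets tested of 37, 0 were called, 4 had an unadjusted p under 0.05, 12 were higher and 22 lower, and the median was -0.19. Abcc3, an efflux pump for glutathione and glucuronide conjugates, lay at 58.6 to 306 CPM in controls and 2.40 to 173 CPM after knockdown, lower in 8 of 8 sets (-2.76, SE 0.60, limma adjusted p = 0.0944). Akr1b8, an aldo-keto reductase, was lower in 7 of 8 sets (-0.96, SE 0.33, limma adjusted p = 0.179). Of 15 glutathione genes tested of 17, 0 were called, 4 had an unadjusted p under 0.05, 3 were higher and 12 lower, with a median of -0.38. Gsta3 and Gstm4, glutathione S-transferases whose families hold near-identical copies that share reads, were at -1.32 (SE 0.43, limma adjusted p = 0.169) and -1.78 (SE 0.62, limma adjusted p = 0.184). In the fit the lists thus lay mostly below control, the side of Osgin1, Me1, Hmox1 and Cbr3. Nqo1, Srxn1, Txnrd1, Nfe2l2, Slc7a11 and Keap1 lay above control. Of all 12931 genes 47.9% had a set mean above control, a measure other than the fitted difference. None of these counts was tested against other genes.

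In the lung and liver interaction limma called 0 members of each list. Of the 15 partners 10 were higher and 5 lower (3 at an unadjusted p under 0.05, median 0.37), of the 34 other targets 19 and 15 (8 at that p, median 0.14), and of the 15 glutathione genes 8 and 7 (2 at that p, median 0.18), against a median of 0.017 over all genes and 2293 of 12931 at that p. Between lung and liver controls 0 members were called, with 1, 6 and 4 at that level and medians of -0.24, -0.057 and -0.0073, against -0.050 and 1692 of 12931 over all genes. Cbr1, the carbonyl reductase beside Cbr3, was at 0 to 8.54 CPM in lung controls and 20.9 to 55.7 CPM in liver controls (-2.94, SE 0.39, limma adjusted p = 0.0625), and its interaction was 2.44 (SE 0.58, limma adjusted p = 0.103). Ftl1, the ferritin light chain that stores the iron heme oxygenase frees, lay at 106 to 423 CPM in lung controls and 428 to 541 CPM in liver controls (-1.42, SE 0.24, limma adjusted p = 0.114). Its interaction was 1.85 (SE 0.40, limma adjusted p = 0.0869). Cbr1 and Ftl1 thus had the signs of Hmox1 in both comparisons, which share their controls. Among partners, Rbx1, a subunit of the CUL3 ligase, was at 156 to 271 CPM in lung controls and 79.2 to 141 CPM in liver controls (0.93, SE 0.26, limma adjusted p = 0.252), with an interaction of -1.13 (SE 0.31, limma adjusted p = 0.125). Bach1, a repressor that competes with NRF2 for response elements, had an interaction of 1.23 (SE 0.47, limma adjusted p = 0.219), and Gsk3b, a kinase that marks NRF2 for degradation, differed between controls by -0.54 (SE 0.30, limma adjusted p = 0.475). Mgst1, a microsomal glutathione S-transferase, was at -2.02 between controls (SE 0.50, limma adjusted p = 0.220) and 3.50 in the interaction (SE 1.37, limma adjusted p = 0.232). Ggt1, which cleaves extracellular glutathione, had the opposite signs, 2.52 (SE 0.50, limma adjusted p = 0.148) and -2.55 (SE 1.03, limma adjusted p = 0.241). It lay at 0 to 14.4 CPM in lung controls and 0.0576 to 0.616 CPM in liver controls, ranges that overlap at values of few reads.

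Across the 18 libraries, which share lines, the genes did not vary as 1 group. Over 45 pairs, Pearson's r of log2(CPM + 1) was above 0 in 27, with a median of 0.064, and ran from -0.66 for Osgin1 and Srxn1 to 0.69 for Txnrd1 and Srxn1. These values pool controls with knockdowns, so those of Osgin1 carry the contrast that chose it, and r over the 8 set differences, which share no control but in part a line, is given second. Txnrd1 and Srxn1 kept a high r (0.69 and 0.73), while Osgin1 and Srxn1 went to -0.12. For Nqo1, r with Srxn1 was 0.63 and 0.30, and with Osgin1 it changed sign, -0.52 and 0.29. Osgin1 and Me1 had 0.50 and 0.41, and Osgin1 and Cbr3 had 0.064 and 0.89. Nfe2l2 had 0.50 and 0.45 with Srxn1 and 0.45 and 0.76 with Keap1. Of all tested genes, those most like Osgin1 over the 18 libraries were Fos (0.78), 2210016L21Rik (0.77), Pkhd1 (0.77), Pim3 (0.77) and March4 (0.76). Fos, an AP-1 subunit, lay at 25.5 to 1022 CPM in controls (median 321, n = 8) and 6.81 to 231 CPM after knockdown (median 27.3, n = 10), a direction that the choice of Fos by its likeness to Osgin1 fixes. Those most like Nqo1 were AU018091 (0.81), Plxnb1 (0.80), Prdm1 (0.79), Ccdc109b (0.78) and Adcy7 (0.78). These values describe the 18 libraries, whose lines, codes and knockdown state are shared between points, and carry no test.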

How the data were processed

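RNA-seq of 18 libraries (TruSeq kit, 1.3 µg of total RNA, per the labels' protocols) was deposited by the authors as 1 table of CPM, counts scaled to each library's reads. Per the submitters' processing notes, reads were placed on mm9. The aligner, counter, annotation, strand setting and filter were not given in the sources used here. In each column 100% of CPM values were whole multiples of 1 read within 0.01 reads, which gave the depth. Each pair of libraries differed by more than sampling noise (smallest chi-square per degree of freedom 33.0).

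The fit (limma 3.58.1 in R 4.3.3, trend, two-sided) took log2(CPM + 1) of genes reaching 1 CPM in 4 or more libraries, blocked by culture set, with Benjamini-Hochberg adjustment over all 12931 genes, at 0.05. Knockdown was the mean of the hairpin effects. Lung and liver lines were compared in their knockdown effect by an interaction term, and in their controls by line means. The quasi-likelihood test of edgeR 4.0.16 on the recovered read counts was added after the data were seen, as was leaving out the sets that differ in identity transcripts. Pairing comes from the cell line in the labels. Deviations of a knockdown library and its control correlated at -0.36 to 0.70 across genes (median 0.02), 4 of 10 pairs being above 0.1. Simulated data were used to test the fit. Part of the genotype is not reported here.

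Members, gene lists, motifs and tests were chosen with earlier results of these data known. The 10 members are named in each comparison. From each list the rule names up to 3 called genes, and where none is called the 2 with the smallest p. Likeness to Osgin1 and Nqo1 is Pearson's r over 18 libraries. Python 3.11.15, pandas 2.3.3, numpy 2.4.6 and matplotlib 3.10.9 were used for tables and plots.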

Additional observations from a re-analysis of the deposited data

Results flagged for a closer look

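Among the shRNA 1 libraries Keap1 was lowest in G45-2, at 45.2 CPM, and that library lay apart from the rest, its gap to the next being 0.771 of the group's range on the log2(CPM + 1) scale (n = 6). This was 1 of 30 groups looked at in this way, and chance alone sets about 1 in 20 apart. The G45-2 library with shRNA 2 (45.6 CPM) had nearly the same Keap1 level, and the G45-2 control was at 55.2 CPM.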

How the results depend on the processing

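Under each alternative run (limma and edgeR), no member passed an adjusted p of 0.05 for knockdown (9 genes, Osgin1 not tested), the interaction or the controls (10 genes each). Counts of all genes called, the background for the members, moved more. For knockdown against control (5 genes) they were 0 without a filter, 0 with edgeR, 0 without the 5 sets of differing identity and 0 also without the second 42-2 set. Leaving out 1 set gave 0 to 8 (8 without the first 42-3 set, 3 without G45-2, 0 without any other). With no replicate block the count was 84, and with the cell line as the block 51; for shRNA 1 (0 genes) these were 10 and 2, with 0 to 2 on leaving out a set (2 without G45-2). For the interaction (24 genes) the fit with no block gave 2, quantile normalization 41 and edgeR 9. Leaving out 1 set gave 0 to 48: 0 and 3 without the first and second 42-3 sets, 39 without 6-2, 48 without the first 42-2 set, 6 without G45-2 and 15 without 6-3. Between controls (4 genes) the count was 2 with a pseudocount of 0.5, 18 without a filter, 14 at a CPM of at least 5, 8 with 8 separate controls, 1 with edgeR and 0 to 159 on leaving out a line (159 without 6-3, 7 without G45-2, 0 without any other). The block changed the call of no member.

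Of the members' values, 512 comparisons with an alternative were kept and 18 changed sign. Kept means the same sign and the same side of the threshold. For Osgin1 under knockdown, which was not tested, it means the same sign and a move smaller than its SD over sets. Without the 5 sets, knockdown gave Txnrd1 -0.24, Slc7a11 -0.026, Cbr3 0.22 and Keap1 -0.26. Without the second 42-2 set as well, Cbr3 was 0.22 and Keap1 -0.25. In the interaction Nqo1 was 1.90 without the first 42-3 set, Osgin1 0.066 without 6-2, and Cbr3 0.94, 0.26 and 0.22 without 6-2, G45-2 and 6-3. Between controls, without 6-2, Osgin1 was -0.27, Nqo1 0.14 and Txnrd1 0.033. Without G45-2, Nqo1 was 0.59 and Txnrd1 0.13, and Nqo1 was 0.044 without 13-2 and 0.019 with 8 separate controls. The cause was not tested. On leaving out 1 set or line, the interaction ran from -0.35 to 0.066 for Osgin1, -3.43 to 1.90 for Nqo1 and -1.61 to 0.94 for Cbr3, and the difference between controls from -0.27 to 1.27 for Osgin1, -0.92 to 0.59 for Nqo1 and -0.51 to 0.13 for Txnrd1. The interaction and the controls could not be fitted without the 5 sets, which hold every lung set. Depth limits Cbr3, whose lowest value lies below that of 3 reads in any library.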
